A study of Mus musculus with 12 samples.

Results

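The mitochondrial genome of the mouse was examined in RNA-sequencing of the left atrium (LA) through all 37 of its genes: 13 for proteins, 2 for ribosomal RNAs (rRNAs) and 22 for transfer RNAs (tRNAs). They were taken as every row of the deposited table whose name begins with mt-, 37 of 54658 gene names. All lie on the mitochondrial chromosome between bases 1 and 15422 of mouse build GRCm38 (chrM:1-15422), 28 of them written on the plus strand of the reference and 9 on the minus strand. The question was whether their transcripts differed between atria with active Notch signaling and control atria, gene by gene, class by class and as a share of all counted reads.

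Each of the 12 libraries came from the LA of 1 mouse. The 6 iNICD mice carried αMHC-rtTA, a transactivator driven by a promoter active in cardiomyocytes, and tetO-NICD, from which the *Notch1* intracellular domain is made once doxycycline binds that transactivator; the 6 littermate controls carried αMHC-rtTA alone. Both groups were 2-3 months old and ate doxycycline chow for 3 weeks with no washout, so the transactivator and the drug were common to all mice. Of the controls 4 were female and 2 male, and of the iNICD mice 3 were of each sex.

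Mitochondrial DNA is copied and transcribed inside the organelle by machinery that is encoded in the nucleus. Both strands are read as long precursors, from which tRNAs are excised to release the mRNAs and rRNAs between them, and *mt-Nd6* is the only mRNA made from the light-strand precursor. The proteins are core subunits of respiratory complexes I, III, IV and V, which the beating atrium relies on for ATP, while all other subunits are imported from the cytosol.

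Between 21432632 and 27182038 reads were counted per library. *Notch1*, the gene the transgene derives from, was at 108 to 131 normalized CPM (read counts per library total after scaling that total by its TMM factor) in control libraries and at 2969 to 4069 in iNICD libraries, with no overlap. The summed normalized CPM of 12 cardiomyocyte markers was 108511 to 133223 in controls and 78722 to 94365 in iNICD; 5 of the 12 were lower and 1 was higher by edgeR's quasi-likelihood test (adjusted p under 0.05), against 1.34% of all tested genes lower and 2.78% higher. Without *Nppa* the ranges of the list overlapped, at 87845 to 102568 and 74928 to 88440.3. The summed levels of the lists for fibroblast, endothelial, smooth muscle, leukocyte, adipocyte and epicardial genes overlapped between groups, with ratios of group means (iNICD over control) of 0.788 to 1.09. The 0.788 was that of the smooth muscle list, which stood at 6162 in control replicate 5 and at 1801 to 3254 in the other controls, and was 1.03 without that library. Each of these lists had 8 tested markers, except the adipocyte list with 5. None of the markers passed in edgeR's quasi-likelihood test. At an unadjusted p under 0.05, 0 were higher and 2 lower, against 9.32% and 8.09% of all tested genes. DESeq2 called 1 lower, the endothelial gene *Egfl7*, against 3.29% of all tested genes. The erythroid list (*Hba-a1*, *Hba-a2*, *Hbb-bs*, *Hbb-bt* and *Alas2*, genes of hemoglobin and heme synthesis) had a lower sum in iNICD, 27.1 to 138 normalized CPM against 59.3 to 247 in controls, a ratio of means of 0.409 with overlapping ranges. Of its 5 genes, 0 passed an adjusted p of 0.05 in edgeR's quasi-likelihood test, 5 were lower at an unadjusted p under 0.05 (8.09% of all tested genes), and 2 were called lower by DESeq2 (3.29%) and 2 by edgeR's exact test (2.07%). No marker of these cell lists was at 0. In whole tissue, fewer cells of a type and less RNA per cell cannot be told apart, and the part of either, or of the cells behind these lists, in the mitochondrial values was not tested.

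The counts did not cover all mitochondrial genes alike. Of the 13 mRNAs, 7 passed the filter of more than 1 CPM in at least 6 libraries, with at least 4665 counts in every library. The other 6, *mt-Co2* (chrM:7013-7696), *mt-Atp8* (chrM:7766-7969), *mt-Atp6* (chrM:7927-8607), *mt-Co3* (chrM:8607-9390), *mt-Nd3* (chrM:9459-9806) and *mt-Nd4l* (chrM:9877-10173), had no more than 4 counts in any library. They lie side by side, between *mt-Co1* and *mt-Nd4*. A stretch of nuclear DNA holds a copy of the same segment: 7 annotated pseudogenes at chr1:24611535-24616197, on the minus strand, match chrM:6381-11042 with 7 mismatches over 4149 aligned bases, 6 of them near the end of the copy that lies in *mt-Co1*. All 6 of these mRNA genes and 5 tRNA genes lie wholly inside the stretch, and *mt-Co1* and *mt-Nd4* reach into it. The first 60 bases of *mt-Co3*, which encodes a core subunit of cytochrome c oxidase, are shown beside the same bases of its copy, the pseudogene *Gm28437* (sequences here are GENCODE M21 transcripts on GRCm38, written 5′ to 3′), because no base tells one from the other.
mt-Co3, chrM:8607-8666, plus strand: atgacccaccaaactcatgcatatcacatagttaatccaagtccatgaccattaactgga
Gm28437, chr1:24613912-24613971, minus strand: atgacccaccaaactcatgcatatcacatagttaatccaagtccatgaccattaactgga

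A read of 50 bases from such a segment has 2 equally good places. Of the 50-base windows of *mt-Co2*, 100% also occur in annotated transcripts of nuclear genes; the share was 99.9% for *mt-Co3*, 99.5% for *mt-Atp6*, 98.8% for *mt-Nd4l* and 98% for *mt-Nd3*. Windows of *mt-Atp8* are in no annotated nuclear transcript (0%), but the gene lies within the copied stretch. Its last bases, from chrM:7927 on, overlap *mt-Atp6* and are matched by the pseudogene *Gm10925*, over less than 1 window. The rest of the gene lies between the pseudogenes, where the nuclear DNA was not compared here. The copies themselves also held few counts: 6 of the 7 chromosome 1 pseudogenes had 0 to 14 counts in every library, and the seventh, *Gm28438*, had 39 to 106. Of the processing routes given with the study, the one that keeps mitochondrial reads counts only uniquely aligned, unambiguous reads. Under that rule the levels of the 5 mRNAs with shared windows cannot be read from these counts. They include *mt-Atp6*, a subunit of ATP synthase, and for *mt-Atp8*, the other such subunit, the few counts are given without a reason.

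**Figure D1:**
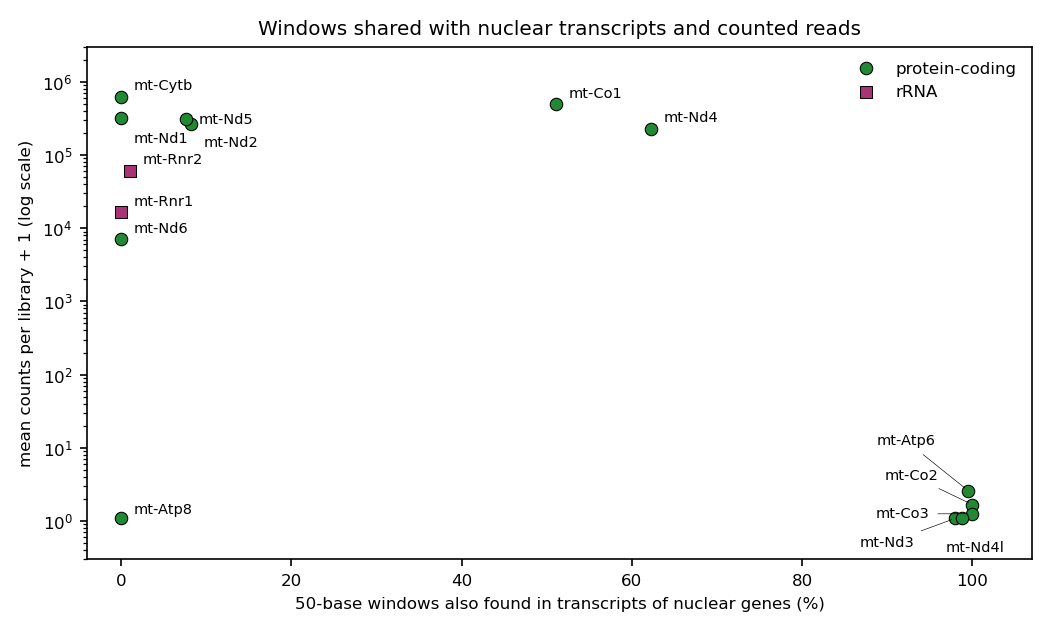
Mean counts per library plus 1 (log scale) against the percentage of each gene's 50-base windows that also occur in transcripts of nuclear genes, for the 13 protein-coding (circles) and 2 rRNA (squares) mitochondrial genes. The 5 genes at 98% or more, and mt-Atp8, had at most 4 counts in any library, while mt-Co1 and mt-Nd4, with 51.1% and 62.2% of windows shared, had 188868 or more in every library.

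The copy ends inside *mt-Nd4*, which encodes a proton-pumping subunit of complex I. Its first 876 bases match *Gm28439* without a mismatch, and the bases from 877 on, in capitals below, lie past the annotated copy, so that 62.2% of its windows are shared and the rest are its own.
mt-Nd4, chrM:11013-11072, plus strand: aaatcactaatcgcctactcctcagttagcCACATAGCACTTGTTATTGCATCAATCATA

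For *mt-Nd2*, which encodes another membrane subunit of complex I, the nuclear copy is less similar. The pseudogene *Gm13339* on chromosome 2 matches its second part with 96.67% identity, and 8.19% of the windows are shared. In the 60 bases with the most differences the copy departs at 4 positions, in capitals below, and *Gm13339* held 1 to 15 counts per library.
mt-Nd2, chrM:4580-4639, plus strand: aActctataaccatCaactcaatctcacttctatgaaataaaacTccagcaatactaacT
Gm13339, chr2:22590336-22590395, minus strand: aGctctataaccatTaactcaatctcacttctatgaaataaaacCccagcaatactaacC

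Mitochondrial transcripts made up a larger share of the iNICD libraries. Together the 37 genes held 8.40%, 7.52%, 9.59%, 8.24%, 8.78% and 9.11% of all counts in control replicates 1 to 6, and 10.7%, 10.3%, 9.60%, 11.2%, 10.6% and 10.5% in iNICD replicates 1 to 6. All 6 iNICD libraries were above all 6 controls, but iNICD replicate 3 and control replicate 3 nearly met. The mean was 8.61% ± 0.723 in controls and 10.5% ± 0.536 in iNICD (SD, n = 6 per group), a ratio of 1.22. The share was higher in both sexes, with control and iNICD means of 8.44% and 10.2% in females and 8.94% and 10.8% in males, and no overlap within either. With TMM-adjusted library totals as the denominator, in which control replicate 5 has a factor of 0.863 against 0.974 to 1.06 for iNICD libraries, the means were 8.71% ± 1.00 and 10.4% ± 0.768 (SD, n = 6) and 4 of 6 iNICD libraries were above all controls. These sums over the genes were described and not tested.

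By class, the mRNAs carried nearly all of it: 8.31% ± 0.683 of counts in controls and 10.1% ± 0.551 in iNICD (SD, n = 6), with 5 of 6 iNICD libraries above all controls. The rRNAs held 0.292% ± 0.0568 and 0.346% ± 0.0367, with overlap. Ribosomal RNA was removed from the samples before sequencing, and how far that reached the mitochondrial rRNAs was not measured. The tRNAs held 0.00665% ± 0.00152 and 0.00849% ± 0.00171, also with overlap. Per 100 mRNA counts there were 3.50 ± 0.549 rRNA counts in controls and 3.43 ± 0.503 in iNICD, and 0.0794 ± 0.0128 and 0.0838 ± 0.0155 tRNA counts (SD, n = 6), and both ratios overlapped between groups.

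**Figure D2:**
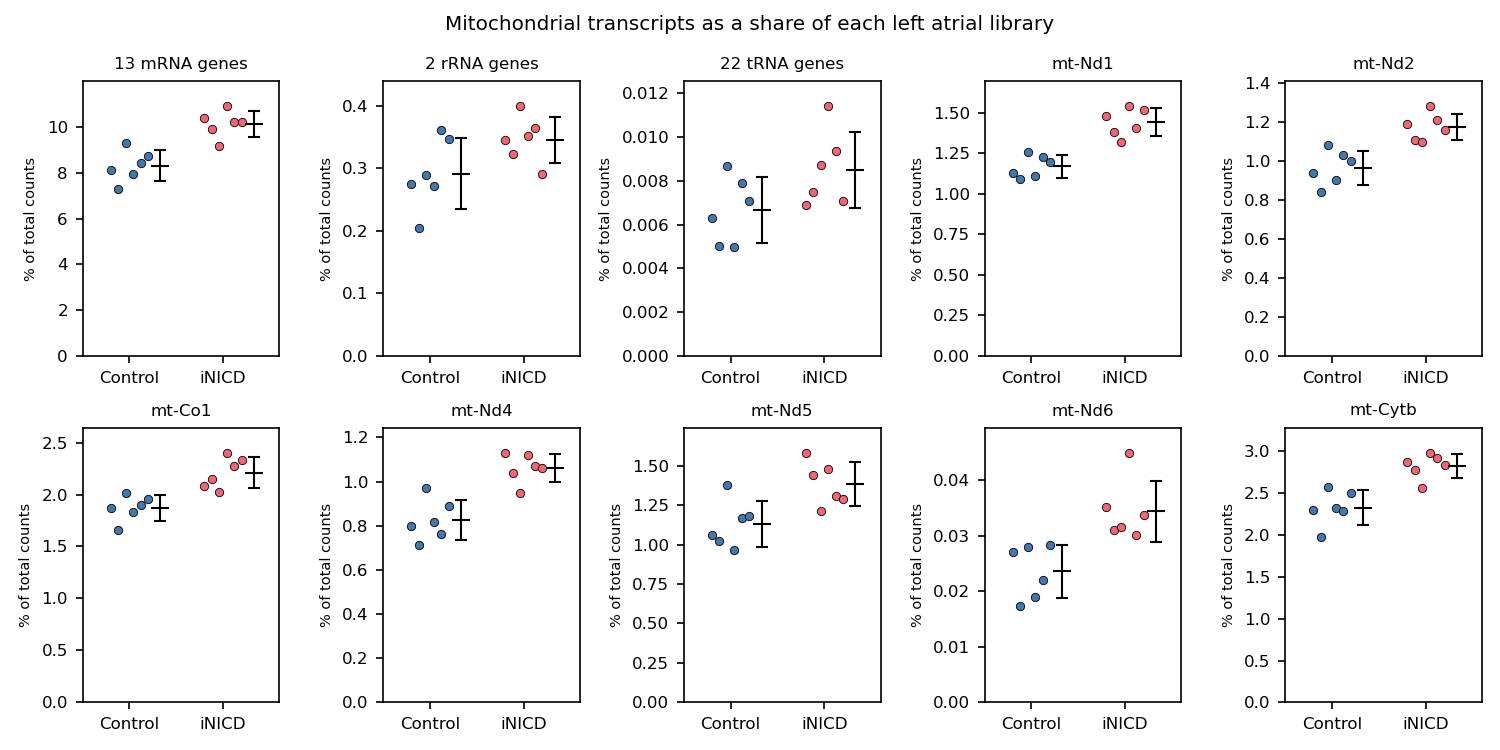
Percent of total counts per library for the 3 classes of mitochondrial genes and the 7 mRNAs that passed the filter (points, 1 per library, replicates 1 to 6 from left to right; dash and bars, mean ± SD, n = 6; all axes start at 0). The iNICD points lie above all control points for mt-Nd1, mt-Nd2, mt-Co1 and mt-Nd6 and overlap them in the other panels.

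Gene by gene, 15 of the 37 could be tested, 7 mRNAs, 2 rRNAs and 6 tRNAs. None passed an adjusted p of 0.05 in either direction in the edgeR quasi-likelihood fit, adjusted by Benjamini-Hochberg over 13541 genes, where 2.78% of all genes were higher in iNICD and 1.34% lower. At an unadjusted p under 0.05, 8 of the 15 were higher, against 9.32% of all tested genes, and 0 were lower. All 15 had a log2 fold change above 0, against 48.7% of all genes. Their median was 0.27 (range 0.11 to 0.81), and that of all tested genes was -0.01. In males alone *mt-Rnr1*, *mt-Rnr2* and *mt-Tw* were below 0, as was *mt-Rnr1* without control replicate 2. The genes share precursors and libraries and are not independent of each other. Other tests called some mRNAs: DESeq2 called 3, *mt-Nd1*, *mt-Nd4* and *mt-Nd6* (4.55% of all genes higher), the same 3 passed in edgeR without normalization factors (2.55%), and the exact test of edgeR called *mt-Nd4* and *mt-Nd6* (3.63%). With sex as a covariate *mt-Nd4* passed (3.18% of all genes higher), without control replicate 5 *mt-Nd1* and *mt-Nd4* did (3.66%), and with the replicate numbers of the sample descriptions as a block *mt-Nd6* did (2.10%). No member passed lower in any of these fits, in which 3.29% of all genes were lower with DESeq2, 2.07% with the exact test, 1.09% without factors, 1.77% with sex, 2.25% without control replicate 5 and 1.00% with that block. On shares of total counts, 4 of the 15 had groups that did not overlap, against 2.90% of all tested genes in the same direction; on normalized CPM 1 did, *mt-Nd6*, against 2.58%.

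**Figure D3:**
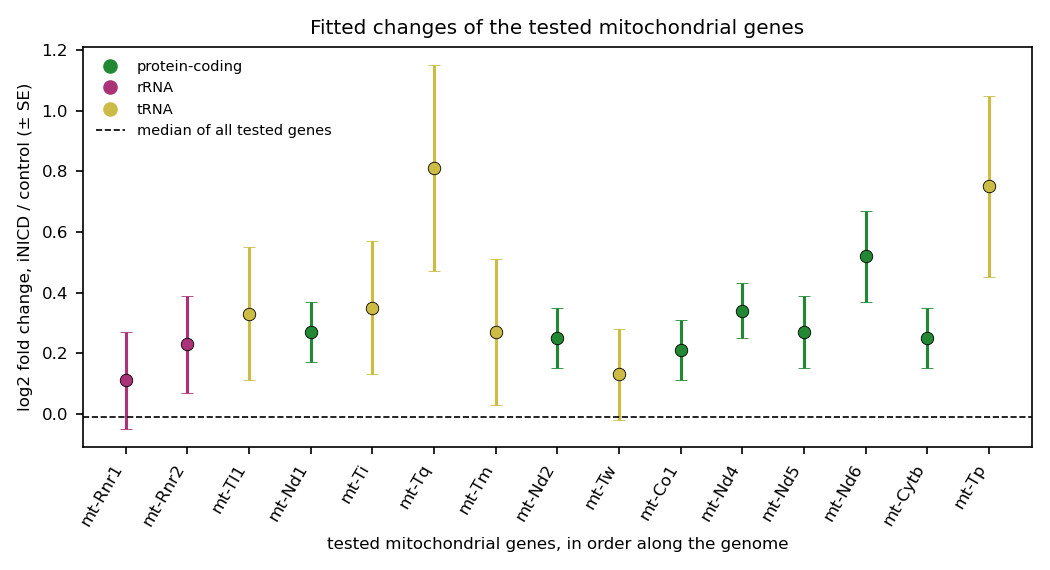
Log2 fold change, iNICD over control, with its standard error in edgeR's quasi-likelihood fit for the 15 tested mitochondrial genes in their order along the genome (green, mRNA; purple, rRNA; yellow, tRNA; dashed line, median of all 13541 tested genes, -0.01). All 15 points lie above the line, between 0.11 for mt-Rnr1 and 0.81 for mt-Tq, and none passed an adjusted p of 0.05.

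Among the mRNAs of complex I, *mt-Nd6* had the largest fitted difference. It is encoded on the minus strand (chrM:13552-14070), and its RNA is rich in G and poor in C (28.1% and 6.0%) where the other 12 mRNAs have 5.9% to 16.1% G and at least 22.1% C. Its first 60 bases are shown, with the start codon in capitals, to make that composition visible.
mt-Nd6, chrM:14011-14070, minus strand: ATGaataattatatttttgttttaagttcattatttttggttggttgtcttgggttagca
Its share of all counts was 0.0270%, 0.0173%, 0.0279%, 0.0189%, 0.0220% and 0.0283% in control replicates 1 to 6 and 0.0351%, 0.0311%, 0.0315%, 0.0449%, 0.0301% and 0.0337% in iNICD replicates 1 to 6. Every iNICD library was above every control, with iNICD replicate 4 standing highest (exact permutation test, two-sided, p = 0.00216, the smallest that 6 against 6 can give; 15 genes tested on shares, unadjusted). The log2 fold change was 0.52 (SE, the standard error, 0.15, edgeR adjusted p = 0.0664), between 0.42 and 0.58 when single libraries were left out. None of its windows is shared with nuclear transcripts. The study's methods call the reads stranded but name a kit that does not itself mark the strand, and the strand setting of the counting is not given in the sources used here, so RNA of the opposite strand of this gene cannot be told apart from its mRNA.

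*mt-Nd4* was at 0.711% to 0.971% of counts in controls (median 0.810%) and at 0.949% to 1.13% in iNICD (median 1.06%). Only iNICD replicate 3 fell within the control range, below control replicate 3. Its log2 fold change was 0.34 (SE 0.09, edgeR adjusted p = 0.0664; exact permutation p of the share 0.00433), with 5 of 6 iNICD libraries above all controls. *mt-Nd1* (chrM:2751-3707), a subunit of the quinone-binding part of complex I, was at 1.09% to 1.26% in controls (median 1.16%) and at 1.32% to 1.54% in iNICD (median 1.45%). Its groups did not overlap, and the log2 fold change was 0.27 (SE 0.10, edgeR adjusted p = 0.154; exact permutation p 0.00216). *mt-Nd2* (chrM:3914-4951) was at 0.842% to 1.08% and 1.10% to 1.28% (medians 0.969% and 1.17%), again without overlap (log2 fold change 0.25, SE 0.10, edgeR adjusted p = 0.218; exact permutation p 0.00216). *mt-Nd5* (chrM:11742-13565), a proton-pumping subunit, was at 0.968% to 1.38% and 1.21% to 1.58% (medians 1.11% and 1.38%). Here 3 iNICD libraries lay within the control range, under control replicate 3 (log2 fold change 0.27, SE 0.12, edgeR adjusted p = 0.256; exact permutation p 0.0173).

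The most abundant mRNAs belong to complexes III and IV. *mt-Cytb* (chrM:14145-15288), the cytochrome b of complex III, was at 1.98% to 2.57% of all counts in controls (median 2.31%) and at 2.56% to 2.98% in iNICD (median 2.85%). Control replicate 3 and iNICD replicate 3 overlapped and all other libraries kept the groups apart (log2 fold change 0.25, SE 0.10, edgeR adjusted p = 0.202; exact permutation p 0.00433). *mt-Co1* (chrM:5328-6872), the catalytic subunit of cytochrome c oxidase, was at 1.66% to 2.01% and 2.02% to 2.40% (medians 1.88% and 2.21%). Its groups did not overlap, by a narrow margin (log2 fold change 0.21, SE 0.10, edgeR adjusted p = 0.296; exact permutation p 0.00216). On normalized CPM all 6 mRNAs other than *mt-Nd6* overlapped between groups, with 2 to 5 iNICD libraries above all controls.

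Ranking the libraries by share, iNICD replicate 4 was the highest of 12 for 10 of the 15 tested genes and for 5 of the 7 mRNAs, and control replicate 2 was the lowest for 10 of the 15 and 6 of the 7. Of the 15, *mt-Nd1*, *mt-Nd2*, *mt-Co1*, *mt-Nd6* and *mt-Rnr2* were higher in females without overlap (4 controls against 3), where 10.2% of all tested genes were higher in iNICD without overlap. In males, with 2 controls against 3, all 7 mRNAs, *mt-Ti* and *mt-Tp* were, where 13.8% of all tested genes were higher without overlap.

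Levels along the genome were compared per length. In controls, normalized CPM per kilobase was highest for *mt-Cytb* (20540.0 ± 2188), followed by *mt-Nd1* (12372 ± 1397), *mt-Co1* (12257 ± 1248) and *mt-Nd2* (9416 ± 1260.2), then *mt-Nd5* (6261 ± 980) and *mt-Nd4* (6049 ± 644; SD, n = 6). *mt-Nd1* and *mt-Co1*, and *mt-Nd5* and *mt-Nd4*, did not differ beyond their spread. *mt-Nd6* stood far below, at 458 ± 91.3, as did the rRNAs *mt-Rnr2* (1459 ± 400) and *mt-Rnr1* (693 ± 167). This order rests on which reads could be counted. Per 50-base window that occurs in no nuclear transcript, *mt-Co1* came first, at 25.9 ± 2.64 normalized CPM per window, before *mt-Cytb* (21.5 ± 2.29) and *mt-Nd4* (16.6 ± 1.77), and *mt-Nd1*, *mt-Nd2* (10.8 ± 1.44) and *mt-Nd5* (6.96 ± 1.09) followed.

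Within the mitochondrial mRNA counts of each library, where the nuclear transcripts play no part, the group means of most mRNAs lay close together. *mt-Cytb* took 28.0% ± 0.800 in controls and 27.9% ± 0.382 in iNICD, *mt-Nd1* 14.1% ± 0.540 and 14.2% ± 0.377, *mt-Nd5* 13.5% ± 0.914 and 13.7% ± 1.03, and *mt-Nd2* 11.6% ± 0.312 and 11.6% ± 0.291 (SD, n = 6). For none of these 4 did the groups differ beyond the spread between replicates (exact permutation, two-sided, p from 0.610 to 0.981). *mt-Co1* took 22.6% ± 0.485 and 21.8% ± 0.925 (p = 0.0887, exact permutation). *mt-Nd4* took 9.10% to 10.5% in controls and 10.3% to 10.9% in iNICD, means of 9.93% ± 0.487 and 10.5% ± 0.214, a ratio of 1.05 (exact permutation p = 0.0173, n = 6). *mt-Nd6* took 0.237% to 0.332% and 0.295% to 0.414%, means of 0.282% ± 0.0423 and 0.339% ± 0.0408, a ratio of 1.20 (exact permutation p = 0.0411). For both the ranges overlapped, with 2 and 3 iNICD libraries above all controls, and these p-values were not adjusted for the 7 genes compared. Set against the 12 mRNAs of the other strand, *mt-Nd6* had 0.283 ± 0.0426 counts per 100 in controls and 0.340 ± 0.0411 in iNICD (exact permutation p = 0.0411, n = 6). This ratio restates the composition of *mt-Nd6* in another form and adds no separate evidence. Of those 12 mRNAs, 6 had at most 4 counts in any library and hardly enter it.

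**Figure D4:**
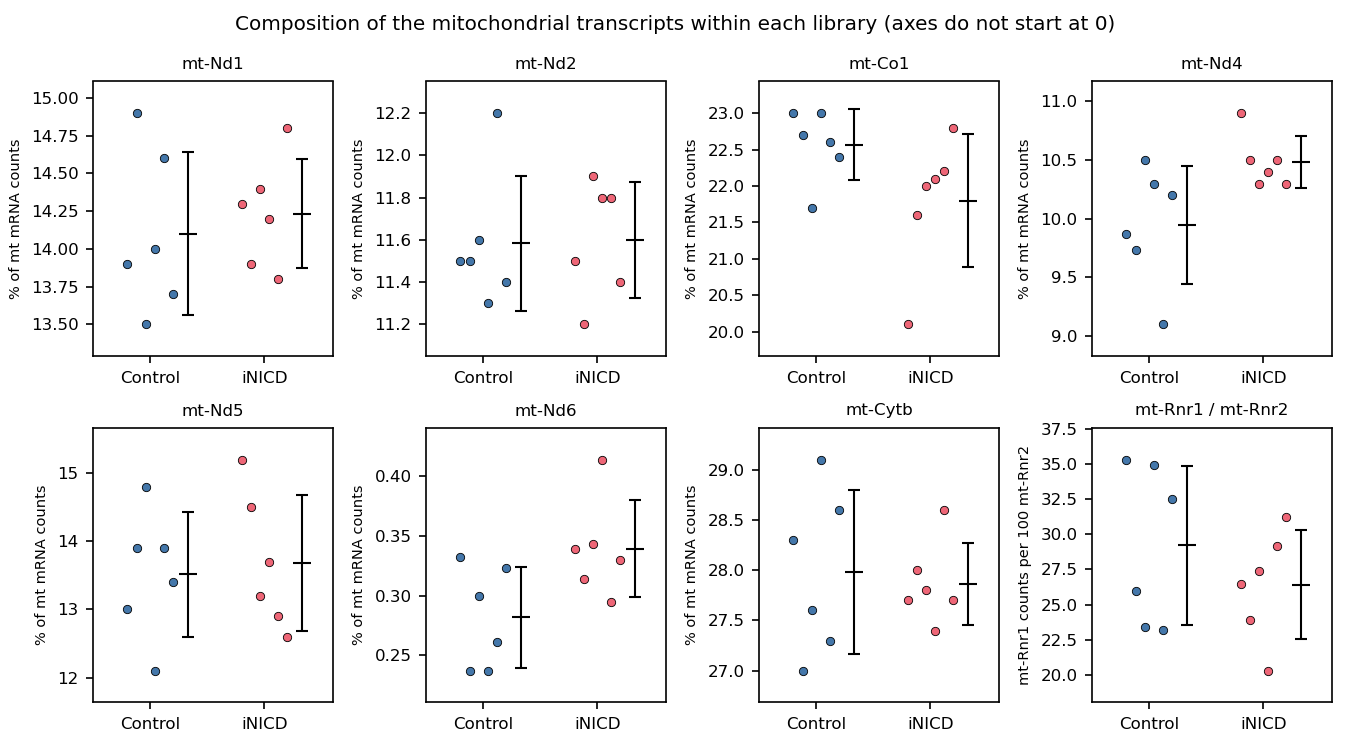
Percent of the summed counts of the mitochondrial mRNAs held by each of the 7 tested mRNAs, and mt-Rnr1 counts per 100 mt-Rnr2 counts, per library (points; dash and bars, mean ± SD, n = 6; axes do not start at 0). mt-Nd4 and mt-Nd6 have higher iNICD means (10.5% against 9.93%, 0.339% against 0.282%) with overlapping points. For mt-Co1 the iNICD mean is lower (21.8% against 22.6%), also with overlapping points, and the other panels overlap widely.

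The 2 rRNAs, the RNAs of the small (*mt-Rnr1*, chrM:70-1024) and large (*mt-Rnr2*, chrM:1094-2675) subunits of the mitochondrial ribosome, did not pass the test. *mt-Rnr1* was at 0.0423% to 0.0850% of counts in controls (median 0.0692%) and 0.0593% to 0.0857% in iNICD (median 0.0707%), and the fitted log2 difference was 0.11 (SE 0.16, edgeR adjusted p = 0.776). That difference was -0.0036 without control replicate 2 and 0.19 without control replicate 6. *mt-Rnr2* was at 0.163% to 0.294% and 0.222% to 0.313% (medians 0.219% and 0.278%), and the fitted log2 difference was 0.23 (SE 0.16, edgeR adjusted p = 0.485), with 0.14 without control replicate 2 and 0.38 without control replicate 5. The groups overlapped for both. There were 29.2 ± 5.67 *mt-Rnr1* counts per 100 *mt-Rnr2* in controls and 26.4 ± 3.86 in iNICD (exact permutation p = 0.338, n = 6). By sex the rRNA class went 2 ways: it was at 0.205% to 0.289% in female controls and 0.323% to 0.399% in female iNICD, and at 0.347% to 0.362% in male controls and 0.291% to 0.365% in male iNICD. The interaction of sex and genotype was -0.63 for *mt-Rnr2* on the log2 scale (male minus female, SE 0.24) and -0.47 for *mt-Rnr1* (SE 0.29). In edgeR the adjusted p was 0.916 for both, so a difference between the sexes was not shown. Because rRNA was removed before sequencing, unequal removal and unequal levels cannot be told apart.

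The tRNAs had few counts. 6 of 22 passed the filter: *mt-Tl1* (leucine), *mt-Ti* (isoleucine), *mt-Tm* (methionine) and *mt-Tw* (tryptophan) on the plus strand, and *mt-Tq* (glutamine) and *mt-Tp* (proline) on the minus strand. They are 67 to 75 bases long, little longer than a read, and the most abundant, *mt-Ti*, had 425 to 1160 counts. The 4 of the plus strand had log2 fold changes between 0.13 (*mt-Tw*) and 0.35 (*mt-Ti*), with standard errors of 0.15 to 0.24, and all overlapped between groups. With single libraries left out they ran from 0.04 to 0.22 for *mt-Tw*, 0.12 to 0.38 for *mt-Tm*, 0.22 to 0.47 for *mt-Ti* and 0.24 to 0.56 for *mt-Tl1*, lowest without control replicate 2 for *mt-Tw* and without iNICD replicate 4 for the other 3, and highest without control replicate 3 for *mt-Ti* and without control replicate 5 for the other 3. The 2 of the minus strand had the largest log2 fold changes of the 15 tested members, 0.81 for *mt-Tq* (SE 0.34, edgeR adjusted p = 0.240) and 0.75 for *mt-Tp* (SE 0.30, edgeR adjusted p = 0.206). Both are printed whole because they are the tested tRNAs encoded on the strand of *mt-Nd6*. *mt-Tq* shares 3 bases, in capitals, with *mt-Ti* on the opposite strand.
mt-Ti, chrM:3706-3774, plus strand: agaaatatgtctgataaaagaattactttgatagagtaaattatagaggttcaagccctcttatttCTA
mt-Tq, chrM:3772-3842, minus strand: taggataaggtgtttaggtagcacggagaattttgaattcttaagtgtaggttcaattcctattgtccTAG
mt-Tp, chrM:15356-15422, minus strand: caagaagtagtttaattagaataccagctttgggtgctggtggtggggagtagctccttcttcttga

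*mt-Tq* had 11 to 39 counts in control libraries and 32 to 90 in iNICD libraries. By count 2 iNICD libraries were above all controls, by share of total counts 3 and by normalized CPM 1, and its log2 fold change was 0.54 without iNICD replicate 4. *mt-Tp* had 29 to 75 and 48 to 165 counts, and by count and by share 5 iNICD libraries were above all controls, by normalized CPM 3. Both ranges rest on few reads, and the exact permutation p of the share was 0.0281 for each (unadjusted, n = 6 per group). The 8 tRNA genes of the minus strand together held 0.000449% ± 0.000126 of counts in controls and 0.000752% ± 0.000234 in iNICD (SD, n = 6; ratio 1.67, 5 of 6 iNICD libraries above all controls), against a ratio of 1.25 for the 14 of the plus strand and 1.46 for *mt-Nd6*. These strand sums were described and not tested, and the limit on strand given for *mt-Nd6* holds for them too.

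The other 16 tRNAs were not tested. *mt-Te* (glutamate) had 5 to 36 counts per library, *mt-Tt* (threonine) 3 to 31, *mt-Tn* (asparagine) 2 to 16, *mt-Ta* (alanine) 2 to 13 and *mt-Tc* (cysteine) 2 to 11, and all of these ranges overlapped between groups. *mt-Tv*, *mt-Tr*, *mt-Ts2* and *mt-Tl2* had 0 to 4 counts. The remaining 7, *mt-Tf*, *mt-Ty*, *mt-Th*, *mt-Ts1*, *mt-Td*, *mt-Tk* and *mt-Tg*, had 0 counts in all 12 libraries, which allows up to 3 counts, or 1.02e-06% of all counts; 4 of these 7 lie in the segment copied on chromosome 1.

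The nuclear genes that transcribe mitochondrial DNA were read from the same fit. There, 2.78% of all tested genes were higher and 1.34% lower, the background to its calls in every nuclear list below. Of 9 tested genes of mitochondrial transcription, 2 were higher and 0 lower (median log2 fold change 0.07), and DESeq2 and edgeR's exact test each called 3 higher, against 4.55% and 3.63% of all tested genes. *Tfam*, which packages mitochondrial DNA and opens its promoters, was at 44.8 to 47.2 normalized CPM in controls and rose to 51.1 to 63.0 in iNICD, with every iNICD library above every control (log2 fold change 0.36, SE 0.06, edgeR adjusted p = 0.00245). *Tefm*, an elongation factor of the mitochondrial RNA polymerase, was at 11.6 to 14.5 and rose to 16.9 to 18.3, again without overlap (log2 fold change 0.39, SE 0.07, edgeR adjusted p = 0.00466). The polymerase itself, *Polrmt*, was at 31.1 to 35.1 and 29.8 to 37.3 normalized CPM (log2 fold change -0.01, SE 0.06), and its initiation partner *Tfb2m* at 4.82 to 9.84 and 6.58 to 7.78 (log2 fold change -0.00, SE 0.15). The third gene called by those 2 tests, *Mterf2*, of the family of mitochondrial termination factors, was singled out after its values were seen. It was at 5.28 to 17.9 and 20.6 to 24.5 normalized CPM, without overlap (log2 fold change 0.82, SE 0.22, edgeR adjusted p = 0.0509). In each alternative that kept both sexes, single libraries left out included, *Tfam* and *Tefm* passed; within 1 sex neither did.

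Of 19 tested genes of mitochondrial DNA replication and maintenance, 0 were higher and 1 lower in edgeR's quasi-likelihood test: *Polg*, the catalytic subunit of the mitochondrial DNA polymerase, fell from 86.5 ± 6.01 to 71.2 ± 4.65 normalized CPM (SD, n = 6; log2 fold change -0.28, edgeR adjusted p = 0.0230), with overlapping ranges of 76.7 to 94.1 and 66.9 to 79.5. Of the 12 fits that left out 1 library it passed in 6, and the call was lost without control replicates 1, 3 or 4 or iNICD replicates 1, 4 or 5. It was also lost without normalization factors and without the filter on low counts. The helicase gene *Twnk* was at 24.1 to 37.5 and 33.6 to 38.6 normalized CPM (log2 fold change 0.11, edgeR adjusted p = 0.633). DESeq2 and edgeR's exact test each called 2 lower (3.29% and 2.07% of all tested genes), *Polg* and *Slc25a4*, the ADP/ATP carrier of heart and muscle, named after its values were seen. *Slc25a4* was at 2823 to 3716 and 2004 to 2927 normalized CPM (log2 fold change -0.37, SE 0.10, edgeR adjusted p = 0.0670).

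Of 36 tested genes for processing and stability of mitochondrial RNA, 0 were higher and 1 lower in edgeR's quasi-likelihood test, *Fastkd2*, an RNA-binding protein of the mitochondrial matrix, at 25.0 to 33.5 normalized CPM in controls and 21.2 to 24.1 in iNICD (log2 fold change -0.30, edgeR adjusted p = 0.0381). Its groups did not overlap, and with 1 library left out it passed in 2 of 12 fits, those without control replicate 1 or 5. Without the filter on low counts it did not pass. The exact test called *Fastkd2* alone, and DESeq2 called it and, higher (4.55% of all tested genes), *Grsf1*, an RNA-binding protein of mitochondrial RNA granules, named after its values were seen. *Grsf1* was at 189 to 207 and 206 to 246 normalized CPM (log2 fold change 0.20, SE 0.05, edgeR adjusted p = 0.0563). *Lrpprc*, which with *Slirp* stabilizes mitochondrial mRNAs, was at 104 to 120 and 123 to 139 normalized CPM, without overlap, and did not pass (log2 fold change 0.15, edgeR adjusted p = 0.161). *Slirp* was at 16.9 to 20.3 and 16.1 to 19.1 (log2 fold change -0.08, edgeR adjusted p = 0.585). Of 13 tested translation factors of the organelle, 0 passed in either direction in edgeR or DESeq2, and 1 was higher at an unadjusted p under 0.05, where 9.32% of all tested genes were.

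**Figure D5:**
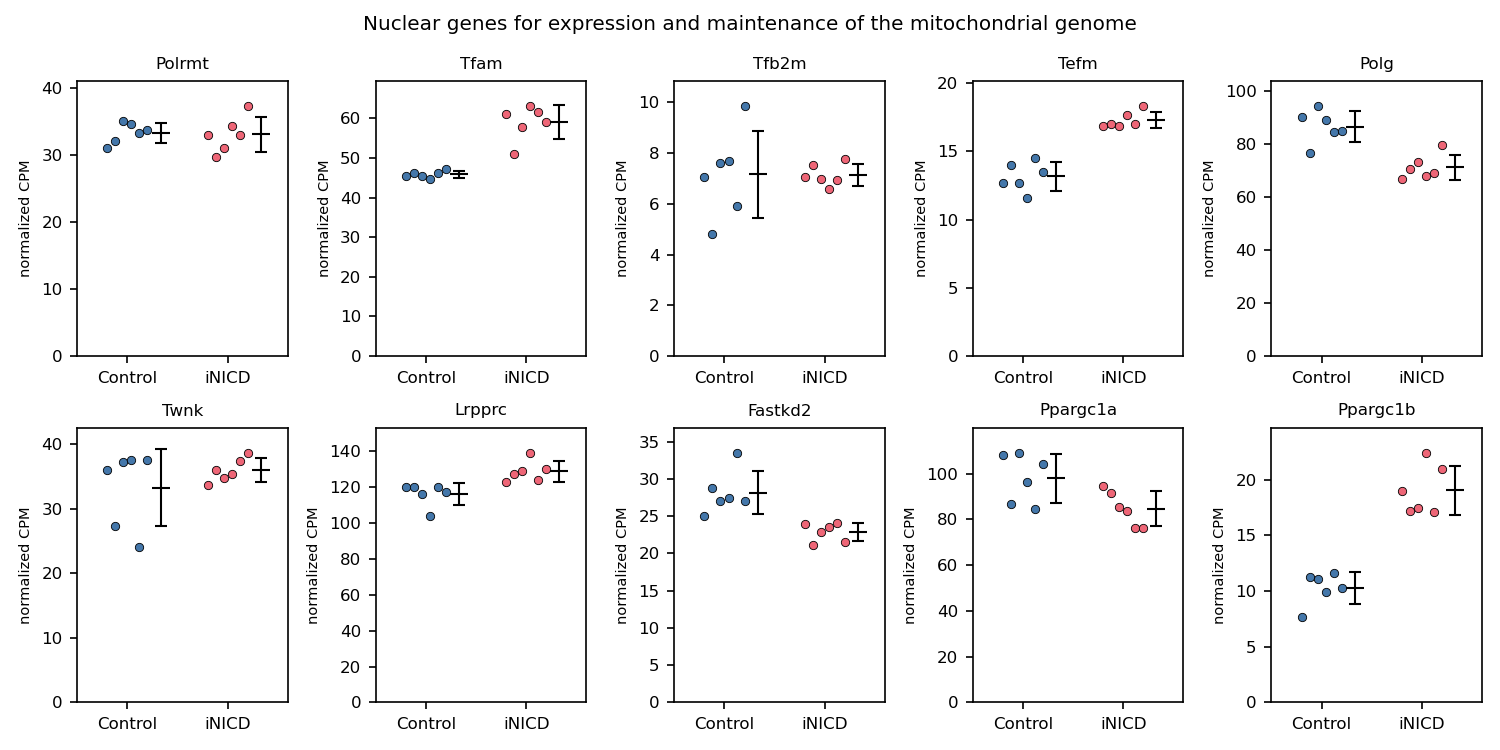
Normalized CPM per library of 10 nuclear genes for transcription, replication, RNA stability and biogenesis of mitochondria (points; dash and bars, mean ± SD, n = 6; axes start at 0). Tfam, Tefm and Ppargc1b lie higher in every iNICD library than in any control and passed the test, Polg and Fastkd2 passed with lower means, and Polrmt, Tfb2m and Twnk overlap.

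Among 13 regulators of mitochondrial biogenesis, 1 was higher and 0 lower. *Ppargc1b*, a coactivator of genes for mitochondria, was at 7.68 to 11.6 normalized CPM in controls and rose to 17.1 to 22.4 in iNICD, with no overlap (log2 fold change 0.88, SE 0.11, edgeR adjusted p = 0.000451). Its relative *Ppargc1a* was at 84.3 to 109 and 76.2 to 94.7 normalized CPM (log2 fold change -0.21, SE 0.08, edgeR adjusted p = 0.200). Of 77 tested nuclear subunits of complexes I, III, IV and V, which also hold subunits encoded in mitochondria, 1 was higher and 1 lower, and 52 had a log2 fold change above 0 (48.7% of all tested genes), with a median of 0.07. In complex I, 27 of 37 were above 0, and 7 were higher and 0 lower at an unadjusted p under 0.05, against 9.32% and 8.09% of all tested genes. In complex III, 8 of 9 were above 0, with a median of 0.12 and 2 higher and 0 lower at an unadjusted p under 0.05. In complex IV, 7 of 15 were above 0, with a median of -0.00 and 1 higher and 2 lower at that threshold. In complex V, 10 of 16 were above 0, with a median of 0.04 and 1 higher and 0 lower. *Ndufa8*, an accessory subunit of complex I, was at 147 to 168 normalized CPM in controls and rose to 195 to 246 in iNICD (log2 fold change 0.49, SE 0.07, edgeR adjusted p = 0.000885), and *Ndufa4*, listed here with complex IV, was at 332 to 426 and fell to 270 to 325 (log2 fold change -0.34, edgeR adjusted p = 0.0214), a call lost without iNICD replicate 1 or 3. Of 77 tested mitochondrial ribosomal protein genes, 0 were higher and 1 lower, *Mrps6* (log2 fold change -0.42, edgeR adjusted p = 0.0244); its gene body overlaps that of *Slc5a3*, so the split of its reads is uncertain, and its call was lost without control replicates 1, 3 or 4 or iNICD replicates 1, 2 or 4 and without normalization factors. The median of these 77 was -0.04. Shares of 2.78% of all tested genes higher and 1.34% lower are the background to each of these counts in edgeR's quasi-likelihood test at an adjusted p.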

How the data were processed

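The authors removed rRNA from LA RNA, sequenced single-end 50-base reads and deposited raw counts for each gene name on mm10, without normalization, with a length in bases per gene. The methods describe STAR with featureCounts (unique, unambiguous reads) and, apart from it, TopHat2 with HTSeq and mitochondrial reads left out; the processing notes name STAR 2.4.2a and featureCounts, and the table, which holds mitochondrial genes, does not name its route. Groups, replicate numbers and sex came from the sample labels. Each library was 1 mouse.

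Genes above 1 CPM in at least 6 of 12 libraries entered the edgeR 4.0.16 quasi-likelihood test (R 4.3.3), TMM factors, two-sided, Benjamini-Hochberg adjustment over all 13541 genes, threshold 0.05; standard errors came from the F statistic. Shares are counts over the library total. Shares, composition and ratios were compared by exact permutation of libraries (scipy 1.17.1). All 37 members matched a GENCODE M21 transcript; their 50-base windows were looked up in all other transcripts, either strand. Tests were tested on simulated data. Alternatives were DESeq2 1.42.0, edgeR's exact test, other factors and filters, sex, replicate blocks, each sex, and each library left out. The sex interaction was added after seeing the data. Members and lists were chosen with earlier results of these data known. Named genes are all mitochondrial mRNAs and rRNAs, tested tRNAs, 9 nuclear genes, changed members of the nuclear lists and nuclear copies with counts; *Mterf2*, *Slc25a4*, *Grsf1*, *Egfl7* and other tRNAs were named after their values were seen. Counting error was not computed apart from the spread between mice.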

Additional observations from a re-analysis of the deposited data

Results flagged for a closer look

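In 60 groups of 6 libraries (15 genes by share of total counts, 15 further measures of composition, ratio and class, in both genotypes) 4 single libraries stood apart from the other 5 by Dixon's ratio, where chance gives about 1 in 20, or 3.00 of 60. iNICD replicate 4 stood apart in *mt-Tq*, at 0.000331% of total counts, and in *mt-Nd6*, at 0.0449%; both are encoded on the minus strand. Control replicate 5 stood apart in the *mt-Nd2* part of mitochondrial mRNA counts, at 12.2%. iNICD replicate 1 stood apart in the *mt-Nd4* part, at 10.9%.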

How the results depend on the processing

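The count of mitochondrial genes that passed higher (0) became 3 with DESeq2, 2 with the exact test of edgeR, 3 with no normalization factors and 1 with sex as a covariate; it was 0 to 2 when single libraries were left out, 2 without control replicate 5. No mitochondrial gene passed lower in any of the 25 alternatives. The cause of these moves was not tested. Over all genes, DESeq2 gave 615 higher and 444 lower, the exact test 280 lower, males alone 8 and 0 (fewer samples), and single libraries left out 273 to 495 higher and 92 to 304 lower. The nuclear lists (4 higher, 4 lower) had 7 higher with DESeq2, 8 without factors, 2 lower without the filter, 0 and 0 in males, and 4 to 9 higher and 0 to 5 lower with single libraries left out. In males alone the rRNA share differed by -0.0185 percentage points against 0.0540, and log2 fold changes were -0.21 for *mt-Rnr1*, -0.17 for *mt-Rnr2* and -0.12 for *mt-Tw*; *mt-Rnr1* was at -0.0036 (without control replicate 2) to 0.19 with single libraries left out. rRNA counts per 100 mRNA counts (iNICD minus control -0.0680) differed by 0.461 in females and -0.913 in males, and turned upward without control replicate 5 (0.0926) or 6 (0.0246) or iNICD replicate 6 (0.0490). The other class shares and the other 3 ratios kept their direction in each sex and with single libraries left out.

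Title replicate numbers were also used as a block. Same-numbered libraries correlated at 0.185, 0.127, -0.120, -0.149, 0.312 and 0.425. For 3 of 6 controls that correlation was the highest with any iNICD library. Whether equal numbers stand for a pairing of mice, such as a shared litter, was not tested. The block gave 332 higher and 136 lower of all genes, 0 mitochondrial genes, and 5 higher and 1 lower of the nuclear lists, without *Polg*, *Fastkd2* and *Mrps6*. The numbers in the descriptions, which exchange controls 4 and 5, gave 285, 136, 1 (*mt-Nd6*), 4 and 3, without *Polg* and *Fastkd2*.

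Few counts limit the values of the tRNAs, 16 of which had at most 36 counts in any library.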
